A study of Homo sapiens with 4 samples.

Results

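MicroRNA genes on chromosomes 1 to 22 were examined for enriched regions in a ChIP-seq experiment (chromatin immunoprecipitation followed by sequencing) on PD-L1 in MDA-MB-231 cells, a line established from a human breast tumour of the triple-negative type. The members were the RefSeq genes of biotype microRNA, or with a microRNA symbol, that span under 200 bp, each taken with 500 bp on both sides. The rule gave 1793 gene windows of 56752 RefSeq genes on these chromosomes. A further 120 microRNA genes lie on X and Y and were not members. The cells were an untreated subclone with the genotype label wild type, grown without any agent that differs between samples. The 2 ChIP samples, replicates 1 and 2, were precipitated with an antibody against the HA tag, and the 2 input samples had no antibody. The sources used here do not say how the tag was brought into the cells, and no mock precipitation was analysed here, so binding and recovery of chromatin without the target cannot be told apart. The gene for PD-L1 is CD274, and the protein is a surface ligand that restrains T cells through the receptor PD-1.

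A microRNA gene encodes a short RNA hairpin. The hairpin is cut out of a longer transcript in the nucleus by DROSHA and its partner DGCR8, trimmed in the cytoplasm by DICER1, and 1 of its arms guides an Argonaute protein to messenger RNAs. Pairing rests mainly on the seed, bases 2 to 8 of the mature strand. Many microRNA genes lie in introns of protein-coding genes and share their transcripts, while others have long non-coding host transcripts or sit in clusters that are transcribed together. The start of the primary transcript can therefore be far from the hairpin, and the windows here describe the DNA around the hairpin and not the start site.

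Of the 10 loci with the best combined rank of fold enrichment in both replicates, 9 are shown by the mature strands of their microRNAs, so that the items behind the counts can be recognised. Sequences are from RefSeq (GRCh38.p14), written 5′ to 3′ with the seed in capitals. MIR3529 lies on the opposite strand of MIR7-2, and MIR3618 has its own window beside that of MIR1306.
hsa-miR-3664-5p: aACUCUGUcuucacucaugagu
hsa-miR-3664-3p: uCUCAGGAguaaagacagaguu
hsa-miR-7-2-3p: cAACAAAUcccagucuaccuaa
hsa-miR-3529-3p: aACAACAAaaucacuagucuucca
hsa-miR-3174: uAGUGAGUuagagaugcagagcc
hsa-miR-6802-5p: cUAGGUGGggggcuugaagc
hsa-miR-11399: uUCAGGUCuggggcugaaaccu
hsa-miR-1306-5p: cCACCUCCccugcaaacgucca
hsa-miR-6769a-5p: aGGUGGGUauggaggagcccu
hsa-miR-933: uGUGCGCAgggagaccucuccc
hsa-miR-10523-5p: gACAAUGAugagaagaccugagga
These strands carry different seeds, and all but MIR11399 lie inside a protein-coding gene. For the window that ranked best, the whole MIR3664 hairpin is given with both mature arms in capitals.
MIR3664: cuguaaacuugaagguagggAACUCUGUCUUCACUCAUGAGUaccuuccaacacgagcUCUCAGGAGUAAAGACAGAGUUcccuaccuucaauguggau
It lies on the minus strand at chr11:70872270-70872368 (hg38).

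Values per peak are the authors' own: the fold enrichment and the −log10 q that their peak caller gave, the q being a p-value corrected for the many regions tested. MIR3664 lies inside SHANK2, the gene of a postsynaptic scaffold, 380866 bp from the nearer end of that gene. Its window carried a peak of fold 3.57 and −log10 q 2.33 in replicate 1 and of fold 2.54 and −log10 q 2.64 in replicate 2. The replicate 1 peak (chr11:70871492-70873345) covered the whole window, and the replicate 2 peak (chr11:70871889-70872143) covered 23.2% of it and ended before the hairpin. Peaks in both replicates thus did not always mean that both lay over the hairpin itself.

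The locus of MIR7-2 and MIR3529 (chr15:88611825-88611934 for MIR7-2), inside AEN, the gene of an apoptosis-enhancing nuclease, had folds of 3.66 and 2.42 in replicates 1 and 2. MIR3174, inside the zinc finger gene ZNF710 (chr15:90006755-90006841), had 3.51 and 2.49. MIR6802, inside PPP6R1, which encodes a regulatory subunit of protein phosphatase 6 (chr19:55239912-55239976), had 3.53 and 2.45. MIR11399 lies outside protein-coding genes (chr1:112882050-112882129), with SLC16A1, a lactate transporter gene, as the nearest, and had 3.46 and 2.54.

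MIR1306 lies inside DGCR8, whose product takes part in excising microRNA hairpins (chr22:20086058-20086142). It had folds of 3.49 and 2.45, with the replicate 1 peak over the whole window and the replicate 2 peak over 15.1% of it. MIR3618, also inside DGCR8, had the replicate 1 peak alone. MIR6769A in MGRN1, a ubiquitin ligase gene, had 3.38 and 2.70, and MIR933 in ATF2, a transcription factor gene, had 3.46 and 2.46. For MIR933 the replicate 1 peak reached only 1.02% of the window. MIR10523 in ERGIC1 had 4.0 and 2.26, the highest replicate 1 fold among the windows with peaks in both lists.

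Windows with peaks were those of ordinary, low-fold peaks. The plot of fold in both replicates shows that the best-ranked windows stood at the edge of a cloud and not apart from it. Among the 200 windows with a peak in both replicates, the highest fold per window had a median of 3.19 in replicate 1 (5% and 95% points 2.75 and 3.66) and of 2.14 in replicate 2 (1.90 and 2.51). All peaks of chromosomes 1 to 22 had medians of 3.14 and 2.27. The highest −log10 q in any member window was 4.1 in replicate 1 and 3.96 in replicate 2, against 8.48 and 51.3 in the lists. Across the 183 separate loci behind these 200 windows, Spearman's rho between the replicates' folds was -0.0775, and Pearson's r on the log2 scale was -0.0915. These coefficients describe loci that passed in both lists, over a narrow range of fold, and carry no p.

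**Figure D1:**
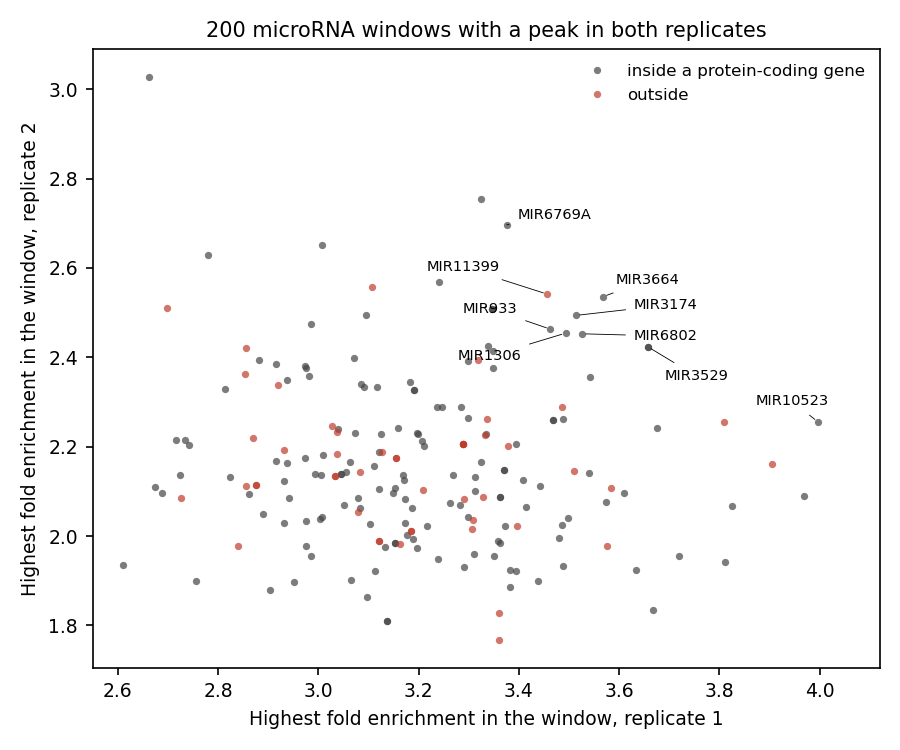
Each point is 1 of the 200 microRNA windows with a peak in both replicates, with the highest fold enrichment of its peaks in replicate 1 (x axis) and replicate 2 (y axis), both linear ratios that do not start at 0; dark points lie inside protein-coding genes and red points outside. The best-ranked loci described in the text are labelled; MIR10523 lies farthest right at 4.0, and no rising trend is seen (rho -0.0775 over 183 loci).

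Peaks overlapped 688 of the 1793 windows in replicate 1 (38.4%, Wilson 95% interval 36.1% to 40.6%) and 277 in replicate 2 (15.4%, 13.9% to 17.2%), where 1 shared base pair counts as an overlap. A peak of each replicate met 200 windows (11.2%, 9.78% to 12.7%). As background, chromosomes 1 to 22 were cut into consecutive tiles of 1080 bp, the width of a typical window, leaving out gene-free stretches of 1 Mb or more. Of 2501095 tiles, 12.0% met a replicate 1 peak, 6.29% a replicate 2 peak and 3.36% both. The shares of microRNA windows were 3.2, 2.46 and 3.32 times those of the tiles. With the tiles weighted by the number of members on each chromosome, the tile shares were 14.2%, 7.37% and 4.13%. No test is given, because there are 2 lists and windows are not replicates of a condition; the intervals cover counting error only and treat windows as independent, although neighbouring windows can share a peak.

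The lists overlapped unequally. The 200 windows were 29.1% of those with a replicate 1 peak and 72.2% of those with a replicate 2 peak, so that 488 windows had a peak in replicate 1 alone and 77 in replicate 2 alone. Neither list reached 1028 windows. The hairpin itself, without flanks, was met by a peak in 480 genes in replicate 1, in 130 in replicate 2 and in 73 in both. A peak covered a median of 60.5% of the window where replicate 1 had one and 38.8% where replicate 2 had one.

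In 5 windows the peaks of both replicates covered every base. They were those of MIR26B (chr2:218402646-218402722), in the phosphatase gene CTDSP1, MIR6867 in RAPGEFL1, MIR11401 in the amino acid transporter gene SLC7A5, MIR6748 in TMEM223 and TMEM179B, and MIR4756 in BCAS1. Their folds ran from 3.01 to 3.31 in replicate 1 and from 1.90 to 2.29 in replicate 2. The highest folds among all windows with both were 4.0 and 3.03, so these 5 were not the windows of highest fold. The relation of coverage to fold over all windows was not computed.

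The surroundings of the microRNA genes were also rich in peaks, as the profile by distance shows. Windows of the same width moved by 2 kb to either side met a peak in 31.8% of cases in replicate 1, 14.4% in replicate 2 and 9.68% in both. At 10 kb the shares were 26.7%, 11.9% and 8.20%, and at 100 kb they were 22.1%, 10.3% and 6.69%. Over all members, the share thus fell with each step from the hairpin in replicate 1, in replicate 2 and in both. At 100 kb it was still above the tiles' 12.0%, 6.29% and 3.36%. In replicate 2 and for both, the share at the gene exceeded that at 2 kb by less than the width of its own interval. For members outside protein-coding genes the share did not fall at every step. Their share of both was 5.04% at 5 kb, 5.27% at 10 kb and 5.66% at 20 kb.

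**Figure D2:**
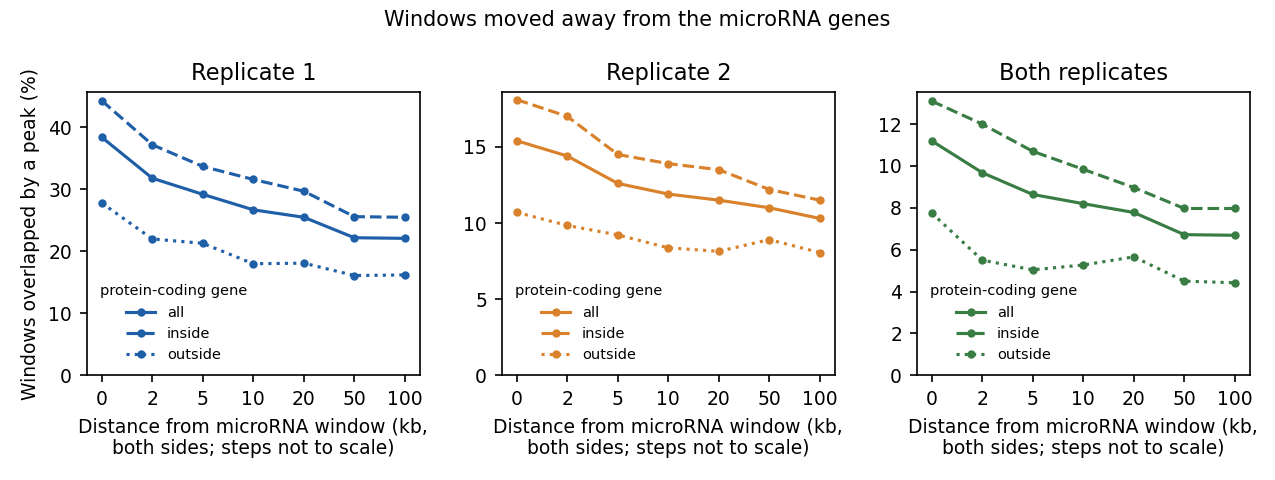
Share of windows overlapped by a peak (y axis, percent) at the microRNA gene (0) and at 2 to 100 kb on both sides (x axis, kb, steps not to scale), for replicate 1, replicate 2 and both, with lines for all genes and for those inside or outside protein-coding genes. The line for all genes falls from 38.4% to 22.1% in replicate 1 and from 15.4% to 10.3% in replicate 2.

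MicroRNA genes inside protein-coding genes met peaks more often than those outside. Of the 1148 inside, 509 had a replicate 1 peak (44.3%, interval 41.5% to 47.2%), 208 a replicate 2 peak (18.1%, 16.0% to 20.5%) and 150 both (13.1%, 11.2% to 15.1%). Of the 645 outside, 179 had a replicate 1 peak (27.8%, 24.4% to 31.3%), 69 a replicate 2 peak (10.7%, 8.54% to 13.3%) and 50 both (7.75%, 5.93% to 10.1%). The intervals did not overlap in either list. Inside exceeded outside by 16.6 percentage points in replicate 1, 7.42 in replicate 2 and 5.31 in both.

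Tiles differed in the same direction. Inside protein-coding genes 15.7%, 7.88% and 4.57% of tiles met a peak in replicate 1, replicate 2 and both, and outside 8.95%, 5.01% and 2.37%. As a ratio, inside over outside was 1.60, 1.69 and 1.69 for microRNA windows and 1.76, 1.57 and 1.92 for tiles, so the ratios of microRNA windows were near those of the tiles. On 21 chromosomes that had at least 10 genes on each side, the inside share was the higher one on 19 in replicate 1, on 16 in replicate 2 and on 15 for both. Chromosomes 17 and 20 were the 2 exceptions in replicate 1, and they were exceptions in replicate 2 and for both as well.

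Within host genes, the share went with nearness to a host end, as the plot of shares by position shows. Among 126 microRNA genes within 1 kb of an end of their host, 66.7% met a replicate 1 peak, 23.8% a replicate 2 peak and 16.7% both. At 1 to 10 kb (428 genes) the shares were 57.0%, 21% and 16.1%, and beyond 10 kb (594 genes) they were 30.5%, 14.8% and 10.1%. Tiles showed 45.1%, 16.7% and 12.7% within 1 kb, 24.5%, 11.5% and 7.65% at 1 to 10 kb, and 12.3%, 6.61% and 3.46% beyond 10 kb. Among these distance groups, the ratio of members to tiles was highest beyond 10 kb, with 10.1% against 3.46% for both replicates. In percentage points the gap was widest at 1 to 10 kb, with 16.1% against 7.65%. At host ends the interval of the 16.7% (11.2% to 24.1%) held the tiles' 12.7%.

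The host's transcription start could be placed for genes with a single host and a known strand. Within 1 kb of the host start, 47 of 58 met a replicate 1 peak (81.0%), 16 a replicate 2 peak (27.6%) and 14 both (24.1%). Promoters of all genes in the RefSeq table, from 250 bases before to 50 after the start and so narrower than these windows, met peaks in 44%, 12.6% and 8.65% of cases. Beyond 10 kb of the host start, 224 of 560 met one in replicate 1 (40.0%), 82 in replicate 2 (14.6%) and 54 both (9.64%). On the host's strand 47.2%, 17.8% and 12.8% of 678 genes met a peak in replicate 1, replicate 2 and both, and on the opposite strand 41.4%, 17.3% and 12.0% of 133.

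Outside protein-coding genes, the 71 microRNA genes within 1 kb of one met peaks in 53.5%, 21.1% and 16.9% of cases in replicate 1, replicate 2 and both. The 429 genes more than 10 kb away did so in 20.5%, 8.39% and 6.29%. Genes in a long non-coding host had 30.4%, 12.3% and 9.49% (253 genes), and those in neither kind of host 26%, 9.69% and 6.63% (392 genes). The intervals of the last groups overlapped.

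**Figure D3:**
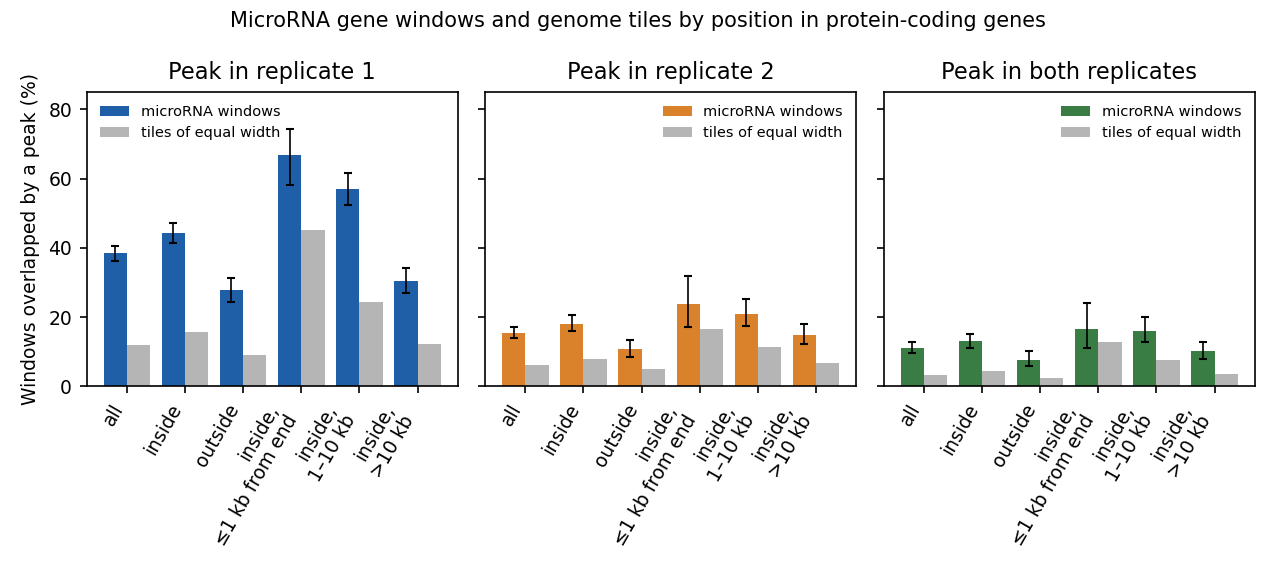
Share of microRNA windows (coloured bars, with Wilson 95% intervals) and of 1080 bp tiles (grey bars) overlapped by a peak, in percent, for replicate 1, replicate 2 and both, split by position relative to protein-coding genes and, inside them, by distance to the nearer host end. Coloured bars are above grey bars in every group, by the most in replicate 1 and by the least within 1 kb of a host end in both replicates (16.7% against 12.7%).

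Base composition of the hairpin, which the choice of members did not use, went with the calls. A hairpin sequence was at hand for 1461 of the 1793 genes (81.5%). Median GC content was 57.6% in genes with peaks in both replicates, 59.3% with a replicate 1 peak alone, 54.0% with a replicate 2 peak alone and 46.2% with none. With hairpins split into 4 nearly equal groups by GC, in the lowest group (up to 43.4%), 15.0% of windows met a replicate 1 peak, 4.64% a replicate 2 peak and 2.73% both. In the highest group (above 61.4%) the shares were 67.9%, 20.6% and 16.8%. The replicate 1 share was higher in each successive group, whereas that of replicate 2 was highest in the third at 24.1%. Hairpin length did not separate the groups, with medians of 78 bp for both, 80 bp and 75 bp for 1 list alone and 81 bp for none.

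Genes inside protein-coding genes had the more GC-rich hairpins, with a median of 54.2% against 48.7% outside. In the highest GC group, 74.3% of windows inside and 50% outside met a replicate 1 peak. In the lowest group the order was the other way in replicate 1, with 14.1% inside and 16.1% outside. For both replicates the inside share was higher in each of the 4 groups, from 3.41% against 1.86% in the lowest to 17.5% against 14.6% in the highest. However, the Wilson intervals of inside and outside overlapped in each of them. In the lowest group the shares rest on 7 of 205 and 3 of 161 windows. In replicate 1 the intervals of inside and outside overlapped in the lowest and second groups but not in the others. They were 54.8% to 66.7% and 33.4% to 51.6% in the third group. In the highest they were 68.7% to 79.1% and 40.2% to 59.8%. The part of base composition in the calls was not tested.

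**Figure D4:**
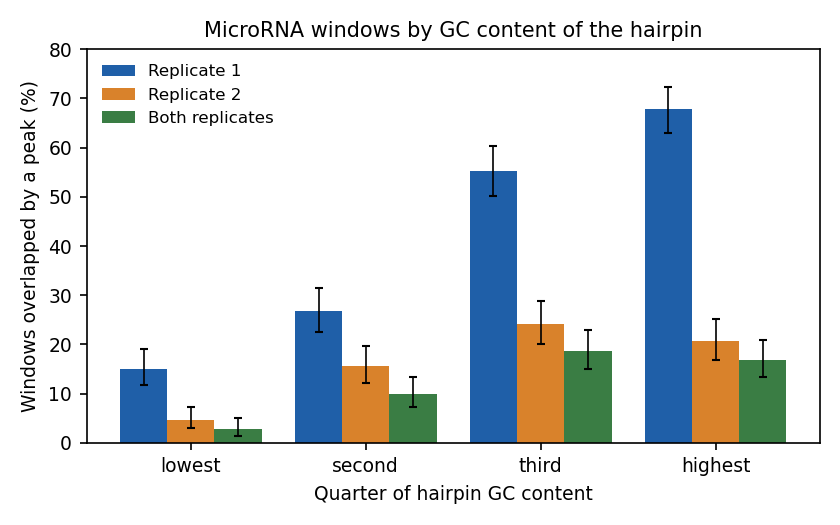
Share of microRNA windows overlapped by a peak (y axis, percent, with Wilson 95% intervals) in 4 nearly equal groups of hairpin GC content (x axis), for replicate 1, replicate 2 and both, over 1461 genes with a sequence. Replicate 1 rises from 15.0% to 67.9%, and replicate 2 from 4.64% to 24.1% in the third group with 20.6% in the highest.

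MicroRNAs with near-copies elsewhere rarely met a peak. A hairpin was called a near-copy when another hairpin in the RefSeq table matched it at 80% identity or more. Among 175 such genes, 6.29% met a replicate 1 peak, 3.43% a replicate 2 peak and 1 gene, MIR133A2, both (0.571%). Among 1286 genes without one, the shares were 46.0%, 18.0% and 13.5%. Leaving out the chromosome 14 and 19 clusters described next, 128 near-copies still had 5.47%, 4.69% and 0.781%. The sources used here do not say how reads that match several places were treated, and their part was not tested.

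The large clusters of chromosomes 14 and 19 differed most in replicate 1. The chromosome 14 cluster is part of the imprinted DLK1-DIO3 region, whose microRNAs are made from the maternal chromosome. Joining genes with gaps of at most 50 kb, it held 42 genes from MIR379 to MIR656 (chr14:101022066-101066801). In replicate 1, 31 of 42 windows met a peak (73.8%), against 13.8% of the tiles of chromosome 14. In replicate 2, 3 of 42 did (7.14%), against 7.13% of tiles, and the same 3 windows had both (7.14% against 4.16%). The 42 windows formed 15 separate loci, and the cluster held 15 replicate 1 peaks, which covered 29.0% of its 44.7 kb, and 3 replicate 2 peaks, which covered 4.27%. Counted by tiles, which do not overlap, 27 of 43 over this span met a replicate 1 peak (62.8%) and 4 met both (9.30%). Replicate 1 folds there ran from 2.88 to 3.68, within the ordinary range of that list.

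The 3 windows with peaks in both lists were MIR299, MIR382 and MIR134. They are shown by their mature strands.
hsa-miR-299-5p: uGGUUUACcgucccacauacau
hsa-miR-382-5p: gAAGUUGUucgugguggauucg
hsa-miR-134-5p: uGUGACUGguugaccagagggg
MIR299 (chr14:101023794-101023856) had folds of 3.09 in replicate 1 and 2.33 in replicate 2. MIR382 and MIR134, a regulator of dendritic spines in neurons, shared peaks of 3.16 and 2.17; the replicate 2 peak (chr14:101053496-101054194) covered 36.2% of the MIR382 window and 0.746% of the MIR134 window. No replicate 2 peak lay over any of the 3 hairpins. The highest replicate 1 folds of windows in the cluster, 3.62 at MIR494 and MIR1193, 3.58 at MIR487A and 3.40 at MIR329-1 and MIR329-2, had no replicate 2 peak in the window. Among the 11 genes with no peak were MIR379, MIR495 and MIR656. Median hairpin GC in the cluster was 41.1%. It was 41.7% (range 29.4% to 60.3%) where a replicate 1 peak met the window and 37.8% (28.8% to 53.1%) where none did, and the part of GC in these calls was not tested.

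Before this cluster, 111 kb away, lies a run of 11 microRNA genes of the same imprinted region, from MIR2392 to MIR370 (chr14:100814491-100911213). There 10 of 11 windows met a replicate 1 peak, 6 a replicate 2 peak and 6 both, with 31 and 18 peaks over 96.7 kb. Tiles of chromosome 14 had shares of 13.8%, 7.13% and 4.16%. The 11 windows form 8 separate loci. MIR665 had the highest fold of these in replicate 1 among windows with both, with 3.81 and 2.26. Inside RTL1, an imprinted gene derived from a retrotransposon, all 5 microRNA genes (MIR431, MIR433, MIR127, MIR432 and MIR136) met a replicate 1 peak and 3 of them a replicate 2 peak. These 5 form 3 separate loci. MIR431, MIR433 and MIR127 shared a replicate 1 peak, and MIR432 and MIR136 shared another. MIR433 and MIR127 also shared a replicate 2 peak. Between the runs, an array of 40 small nucleolar RNA genes (SNORD113 and SNORD114) over 68.5 kb held no peak in either list. Its 0 of 40 windows allow a share of up to 7.50%.

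The chromosome 19 cluster is a primate-specific array expressed mainly in placenta, followed by MIR371A to MIR373, which are known from pluripotent stem cells. It held 50 genes from MIR512-1 to MIR373 (chr19:53666679-53788773), all outside protein-coding genes and in 42 separate loci. A replicate 1 peak met 4 of 50 windows (8.00%, against 29.1% of the tiles of chromosome 19). A replicate 2 peak met 1 (2.00%, against 14.1%). None had both (0 of 50, which allows a share of up to 6%, against 9.12% of tiles). These tiles include those inside protein-coding genes. Tiles outside such genes on all chromosomes examined had 8.95%, 5.01% and 2.37% in replicate 1, replicate 2 and both. The intervals of 4 of 50 (3.15% to 18.8%) and 1 of 50 (0.354% to 10.5%) held 8.95% and 5.01%. The limit of 6% lay above 2.37%. By tiles, 1 of 114 over the cluster met a replicate 1 peak (0.877%, interval 0.155% to 4.8%). A replicate 2 peak met 5 (4.39%), and none had both. All 4 windows of replicate 1 were MIR371A, MIR371B, MIR372 and MIR373, which share 1 peak of fold 3.28 (chr19:53788050-53788719). The remaining 46 genes, over 95.8 kb, held no replicate 1 peak. Replicate 2 had 3 peaks in that array, of which 1, of fold 2.66, met a window, that of MIR1323.

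MIR1323, MIR372 and MIR373 are shown as examples of the 5 members of the cluster with a peak in 1 list; MIR372 and MIR373 share their seed.
hsa-miR-1323: uCAAAACUgaggggcauuuucu
hsa-miR-372-3p: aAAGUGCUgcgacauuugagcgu
hsa-miR-373-3p: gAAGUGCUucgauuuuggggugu
Stretches of 100 kb on either side of the cluster held 6 and 15 replicate 1 peaks and 5 replicate 2 peaks each. The clusters also differ in sequence. Of 47 hairpins of the chromosome 19 cluster, 39 had a near-copy (83.0%), against 8 of 40 on chromosome 14 (20%), while median GC was 44.8% on chromosome 19 and 41.1% on chromosome 14. The part of near-copies in the low count of chromosome 19 was not tested.

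**Figure D5:**
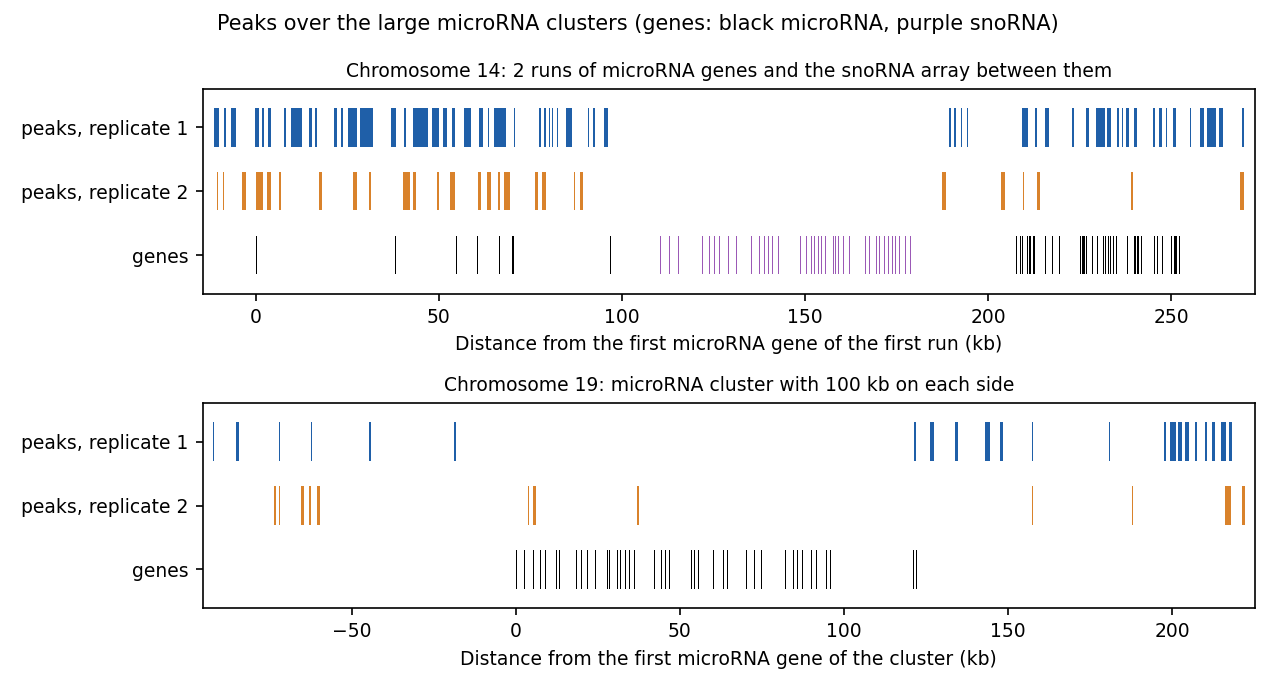
Peaks of replicate 1 (blue) and replicate 2 (orange) and genes (black microRNA, purple small nucleolar RNA) over the runs of chromosome 14 (upper map) and the cluster of chromosome 19 with 100 kb on each side (lower map); the x axes give the distance in kb from the first microRNA gene shown. Replicate 1 peaks lie over both chromosome 14 runs and not over the 68.5 kb array between them, and 1 replicate 1 peak lies at the end of the chromosome 19 cluster.

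In all, 15 runs held 5 or more genes, and 6 of them had no peak in either list. Of all members, 1028 of 1793 had no peak in either list. Among those 6 runs were MIR367 to MIR302B, a stem cell cluster inside LARP7 (5 genes), and MIR17 to MIR92A1, the oncogenic miR-17~92 cluster (6 genes). The windows of each of these form 1 locus. The others were MIR3689C to MIR3689F on chromosome 9, also 1 locus, and, on chromosome 16, MIR3179-1 to MIR6770-1, MIR3179-2 to MIR6511A3 and MIR6511A4 to MIR3179-3. All genes of MIR24-2 to MIR181D on chromosome 19 (5 genes) had a replicate 1 peak and none a replicate 2 peak. Their windows form 2 loci. Of all member windows of chromosome 19, 47.9% met a replicate 1 peak and 9.86% a replicate 2 peak. On chromosome 20, MIR941-1 to MIR647 had 2 of 7 windows in replicate 1, 5 in replicate 2 and none in both. The 5 are MIR941-1 to MIR941-5, whose overlapping windows form 1 locus.

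Families of known function were counted from 12 lists of symbols and are given beside the shares of all members (38.4%, 15.4% and 11.2%). Members described as acting on CD274 messenger RNA, which encodes PD-L1, had a replicate 1 peak in 10 of 18 windows, a replicate 2 peak in 5 and both in 5. The 5 were MIR200C, MIR195, MIR497, MIR152 and MIR142. MIR34A, MIR570, MIR155, MIR200A, MIR200B, MIR873, MIR15A and MIR16-1 had none. The share of both was 27.8% (interval 12.5% to 50.9%). That interval lay above 11.2%, but it treats windows that share peaks as separate. The list was also 1 of 12, chosen with earlier results of these data known. MIR195, MIR497, MIR152 and MIR142 lie on chromosome 17, where 21.8% of all member windows had both, a share within that interval. Peaks at MIR195 and MIR497, 2 microRNAs of 1 primary transcript, were the same, with folds of 3.03 and 2.13. MIR152, in COPZ2, had 2.92 and 2.17, and MIR142, a leukocyte microRNA, 3.08 and 2.05.

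The miR-15/16 group and the miR-26 family are shown because their seeds recurred among separate loci with peaks in both replicates. Of 275 seeds in 184 such genes with a mature sequence, 3 occurred in more than 1 locus: that of miR-15/16, that of miR-26, and 1 carried by MIR4498 and MIR762.
hsa-miR-195-5p: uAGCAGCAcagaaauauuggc
hsa-miR-497-5p: cAGCAGCAcacugugguuugu
hsa-miR-6838-5p: aAGCAGCAguggcaagacuccu
hsa-miR-15a-5p: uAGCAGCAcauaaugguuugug
hsa-miR-16-5p: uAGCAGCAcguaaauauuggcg
hsa-miR-26a-5p: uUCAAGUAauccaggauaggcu
hsa-miR-26b-5p: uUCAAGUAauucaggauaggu
MIR6838, inside the DNA polymerase gene POLM, had folds of 3.72 and 1.95. The other genes with this seed, MIR15A, MIR16-1, MIR15B and MIR16-2, had no peak in either list, so the family was split between loci. MIR26A1 in CTDSPL had folds of 2.98 and 1.98 and MIR26B in CTDSP1 3.24 and 2.29, while MIR26A2 had a replicate 1 peak alone. MIR4465 and MIR1297, the other genes with the miR-26 seed, had no peak in either list.

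The miR-200 family restrains epithelial-mesenchymal transition by acting on ZEB1 and ZEB2. Its chromosome 12 pair, MIR200C (chr12:6963699-6963766) and MIR141, had peaks in both lists, with folds of 3.12 and 1.99. The replicate 1 peak (chr12:6960414-6964679) covered the whole window of MIR200C. Its chromosome 1 members MIR200B, MIR200A and MIR429 had none. The 2 of 5 windows with both (interval 11.8% to 76.9%) thus rest on 1 pair of peaks. The seeds are shared across the chromosomes.
hsa-miR-200c-3p: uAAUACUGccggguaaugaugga
hsa-miR-200b-3p: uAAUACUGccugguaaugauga
hsa-miR-429: uAAUACUGucugguaaaaccgu
hsa-miR-141-3p: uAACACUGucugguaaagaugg
hsa-miR-200a-3p: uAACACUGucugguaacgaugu

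The let-7 family represses growth genes such as LIN28B and HMGA2. Of its 10 windows, 5 had a replicate 1 peak and 1, MIRLET7E, both. MIRLET7E (chr19:51692786-51692864) and its neighbour MIR125A lie inside SPACA6 and met the same peaks, of fold 3.35 and 2.51. The replicate 2 peak covered 49.4% of the MIR125A window and 5.65% of that of MIRLET7E.
hsa-let-7e-5p: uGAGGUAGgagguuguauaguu
hsa-miR-125a-5p: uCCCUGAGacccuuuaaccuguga
Of 9 genes of the miR-17~92 and miR-106b~25 clusters, which promote cell cycle entry, MIR106B, MIR93 and MIR25 shared 1 replicate 1 peak of fold 3.33. It lies inside MCM7, the gene of a replicative helicase subunit. No window met a replicate 2 peak, but the 9 windows form only 2 separate loci.

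Among 13 microRNAs that promote growth or spread of breast cancer, 8 had a replicate 1 peak and 1, MIR182, both (fold 3.34 and 2.26). MIR21, MIR155 and MIR210 had none, and MIR10B, a metastasis-promoting microRNA, had a replicate 1 peak of 3.12. Among 18 that restrain it, 6 had a replicate 1 peak and 3 both: MIR125A, MIR145 (3.33 and 2.09) and MIR146B (3.21 and 2.1). MIR34A, MIR205, MIR31 and MIR335 had none. The shares of both were 7.69% (interval 1.37% to 33.3%) and 16.7% (5.84% to 39.2%), beside 11.2% of all members.

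Peaks were also found at microRNAs typical of other tissues. Of 9 muscle microRNAs, 7 had a replicate 1 peak and 4 both (44.4%, interval 18.9% to 73.3%). The 4 were MIR1-1 and MIR133A2 on chromosome 20 and MIR208B and MIR499A in the myosin genes MYH7 and MYH7B. MIR1-1 (chr20:62554306-62554376) and MIR133A2 lay under a single very wide replicate 1 peak (chr20:62528910-62571099, fold 3.36) and had separate replicate 2 peaks of 1.83 and 1.77. Their mature strands are the following.
hsa-miR-1-3p: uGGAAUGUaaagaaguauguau
hsa-miR-133a-3p: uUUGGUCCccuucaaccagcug
Of 7 blood microRNAs, 4 had a replicate 1 peak and 3 both: MIR451A and MIR144, erythroid microRNAs that shared peaks of 3.29 and 2.21, and MIR142. That share of both was 42.9% (15.8% to 75%). The intervals of the muscle and blood lists also lay above 11.2%, but they treat windows that share peaks as separate. Both lists were among the 12 chosen with earlier results of these data known. MIR1-1 and MIR133A2 shared the replicate 1 peak alone, and MIR451A and MIR144 shared the peaks of both lists. At MIR451A and MIR144 the replicate 1 peak (chr17:28861594-28862831) and the replicate 2 peak (chr17:28860561-28861473) did not overlap each other. MIR499A also lies on chromosome 20, where 31.2% of all member windows had both. MIR451A, MIR144 and MIR142 lie on chromosome 17, where 21.8% had both. The interval of each list held the share of that chromosome. Of 10 neuronal ones, 6 had a replicate 1 peak and 1, MIR128-2 in ARPP21, both (2.99 and 2.48).

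Of 10 mirtrons, whose hairpins are short introns released by splicing, 7 had a replicate 1 peak and none a replicate 2 peak, which allows a share of up to 30.0%. Their median hairpin GC was 69.0%. At the other end, the 66 genes of the MIR548 family, which derive from a transposable element, had a replicate 1 peak in 6 windows (9.09%), a replicate 2 peak in 3 (4.55%) and both in 1, MIR548J in TPST2 (2.92 and 2.38), with a median GC of 37.1%. Of 11 MIR1302 genes, 1 had a replicate 1 peak and 2 a replicate 2 peak, with both at MIR1302-5 (2.74 and 2.2).

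By chromosome, the share of windows with both ran from 0 of 29 on chromosome 21, which allows a share of up to 10.3%, to 15 of 48 on chromosome 20 (31.2%), where 14% of tiles had both. Chromosome 17 followed with 24 of 110 (21.8%, tiles 7.60%). Chromosome 19, with the second highest number of members, had 11 of 142 (7.75%, interval 4.38% to 13.3%), beside 9.12% of its tiles. These 142 hold the 50 windows of the large cluster, none of which had both, and in replicate 1 the windows of chromosome 19 met peaks more often than its tiles (47.9% against 29.1%). For comparison with other small RNA genes, 48 of 1150 small nucleolar RNA windows (4.17%) and 48 of 439 transfer RNA windows (10.9%) had peaks in both replicates.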

How the data were processed

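The authors deposited 1 list of broad peaks per ChIP replicate. The submitters' processing notes name Bowtie2 2.2.9, MACS2 2.1.1 and the build hg38 without saying what each was used for, and the sources used here give no caller settings. The deposited columns follow the usual layout for broad peaks: a score, which was not used, a fold enrichment (a ratio), and −log10 values of p and q for each peak. Replicate 2 peaks have Merge in their names, with no explanation given. Depth is unknown, since reads were not used. Inputs entered only through the caller.

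Lists of 166313 and 93106 peaks on chromosomes 1 to 22 were overlapped (1 bp or more) with windows around RefSeq genes (GRCh38.p14, which is the hg38 build). A gene was inside when its span lay within a protein-coding gene. Tiles, Wilson intervals (level 95%) and counts were computed with Python 3.11.15, numpy 2.4.6, pandas 2.3.3 and scipy 1.17.1, and near-copies with edlib 1.3.9.post1 (edit distance over the longer hairpin, threshold 80%). Overlap and coverage were checked on simulated peaks. With 0 counts, the limit given is 3 counts. The replicates are called biological in the design text.

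Members and lists were chosen with earlier results of these data known. Named genes were the 10 loci with the best mean rank of fold in both lists, at most 5 members with both per list, at most 8 members with a peak per large cluster, and the 5 windows most covered. Of these, 1 locus is not reported here. Other members were named, after their values were seen, to account for lists, clusters, hosts and shared seeds. The near-copy comparison was added after seeing the data.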

Additional observations from a re-analysis of the deposited data

How the results depend on the processing

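For the share with peaks in both replicates (11.2%), the value was 4.07% without flanks, 27% with 2 kb flanks, 1.51% with a −log10 q of at least 2 (27 windows), 1.45% with peaks above the median fold, 7.42% with equal numbers of peaks and 3.12% when peaks had to cover 50% of the window. With 1 replicate left out it was 15.4% to 38.4%. The difference of inside minus outside (5.31 points) kept its direction under every alternative run; it was 1.76 without flanks, 13.7 with 2 kb flanks, 1.14 with the stricter q, 1.54 with peaks above the median fold and 1.97 with 50% coverage, and 7.42 to 16.6 with 1 replicate left out. Its interval reached below 0 without flanks (-0.18) and with the stricter q (-0.0725). For the chromosome 14 cluster (7.14%), the value was 38.1% with 2 kb flanks, 2.38% when the peaks had to overlap each other, 0% without flanks, with the stricter q, peaks above the median fold, equal numbers or 50% coverage, and 7.14% to 73.8% with 1 replicate left out. For the chromosome 19 cluster (0%) it was 2.00% to 8.00% with 1 replicate left out and 0% otherwise. Settings that keep fewer peaks or narrower windows lower shares by construction. Merged windows, a 10 kb gap and extended hosts stayed within the intervals, as did leaving out both clusters or hosts with LOC symbols, which were chosen after seeing the data. Of 38 named windows with both, 12 remained with the stricter q. No paired analysis was possible because each replicate has 1 list and no group was tested. Depth is unknown, so a window without a peak is not shown to lack enrichment.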

Other observations

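Promoters of long non-coding genes named as microRNA hosts (250 bases before to 50 after a start in the RefSeq table) were counted separately. Of 83 such promoters on chromosomes 1 to 22, some of them of the same gene, 26 met a replicate 1 peak (31.3%, interval 22.4% to 41.9%), 7 a replicate 2 peak (8.43%, 4.15% to 16.4%) and 1, that of MIR194-2HG, both (1.20%, 0.213% to 6.51%). Of the 7, 3 are neighbouring starts of MIR99AHG. Over all 33725 promoters of these chromosomes in the table, the shares were 44%, 12.6% and 8.65%. The replicate 2 interval held the share of all promoters, while the intervals of replicate 1 and of both lay below it. On chromosome X, 118 microRNA windows met a peak in 1 case in replicate 1 and in 4 cases in replicate 2.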
